A study of Mus musculus with 12 samples.

Results

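The genes described here are 53 mouse genes of DNA replication and S phase, named in a list by symbol and taken from a deposited table of 15720 gene identifiers. All 53 were in the table and all 53 passed the filter of a mean of at least 0.5 FPKM (fragments per kilobase of transcript, scaled to a fixed number of mapped fragments). The list goes by function and its rule uses no measured value, but it was chosen with earlier results of these data known. They were measured in 12 bulk RNA sequencing libraries of EMS404, a mouse hepatic stellate cell line. The 4 groups, with 3 libraries each, were cells with an siRNA against Bmal1 given TGFb, cells with a scrambled siRNA given TGFb, cells with the Bmal1 siRNA given vehicle, and cells with the scrambled siRNA given vehicle. TGFb was given at 10 ng/mL for 24 h, from 48 h after transfection. All groups share the C57Bl6 background, a human TLR4 gene and SV40 immortalisation, and all come from 1 cell line. Bmal1 is a transcription factor of the circadian clock and the product of Arntl. The comparisons ask how TGFb alters these genes and whether the Bmal1 siRNA alters that response.

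Replication begins when the origin recognition complex, Cdc6 and Cdt1 load the MCM helicase onto DNA in G1. Cyclin E with Cdk2 then fires the origins, Cdc45 and the GINS complex turn MCM into an active helicase, and polymerases copy both strands with the Pcna clamp. E2F transcription factors switch on most of these genes once the RB proteins that hold them are inactivated, and TGFb is known to halt many cell types in G1 by way of CDK inhibitors. SV40 large T antigen binds the RB proteins, which limits this line as a model of that control.

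E2F factors are known to act at promoters of replication genes, so the sequence upstream of some RefSeq starts is shown first. RefSeq promoter windows on GRCm38.p6 (mm10), from 250 bases before to 50 after a start, were found for 44 of the 53 genes. The E2F motif was searched as TTTCCCGC, TTTCGCGC, TTTGCCGC and TTTGGCGC on both strands. It was present in 18 of 44 replication genes (40.9%), against 5.06% of 8939 tested genes with a window and 2.6% of 27025 genes with a window. Mcm6, which encodes a subunit of the MCM helicase, held the most matches with 3. Tk1, which encodes thymidine kinase and showed the widest spread of expression between groups, held none in its window. Both stretches lie upstream of the RefSeq start and outside annotated exons of the gene, and capitals mark E2F matches, 2 of which overlap in Mcm6.
Mcm6, chr1:128359706-128359955, minus strand: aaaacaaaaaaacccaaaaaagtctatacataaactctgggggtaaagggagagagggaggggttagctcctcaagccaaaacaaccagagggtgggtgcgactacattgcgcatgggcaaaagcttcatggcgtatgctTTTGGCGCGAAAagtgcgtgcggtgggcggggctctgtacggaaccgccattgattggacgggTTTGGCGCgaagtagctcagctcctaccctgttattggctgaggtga
Tk1, chr11:117826093-117826264, minus strand: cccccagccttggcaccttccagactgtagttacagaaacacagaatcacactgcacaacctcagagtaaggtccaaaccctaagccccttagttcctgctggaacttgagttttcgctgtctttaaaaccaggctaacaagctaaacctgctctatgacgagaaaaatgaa

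Other genes with a match wholly upstream of a RefSeq start are shown by short stretches around it, with the E2F match in capitals. They span licensing, helicase, polymerase and chromatin genes. The matches of Cdc6, Orc1, Mcm7, Gins3, Rfc3, Hells and Uhrf1 lie within the gene as annotated in GENCODE M21, so they are not upstream by that annotation.
Cdc6, chr11:98908003-98908030, plus strand: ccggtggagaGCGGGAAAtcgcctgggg
Orc1, chr4:108579417-108579444, plus strand: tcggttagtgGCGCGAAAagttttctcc
Mcm5, chr8:75109350-75109377, plus strand: aagaacTTTCGCGCCAAAacgtccagcc
Mcm7, chr5:138172031-138172058, minus strand: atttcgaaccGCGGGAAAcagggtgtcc
Gins3, chr8:95633508-95633535, plus strand: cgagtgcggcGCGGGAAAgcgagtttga
Pola1, chrX:93632276-93632303, minus strand: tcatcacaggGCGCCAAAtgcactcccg
Rfc3, chr5:151651209-151651228, minus strand: cgtcgcacgcTTTCGCGCtc
Hells, chr19:38930918-38930945, plus strand: accaccgggtTTTCCCGCgaaagagaag
Uhrf1, chr17:56304118-56304145, plus strand: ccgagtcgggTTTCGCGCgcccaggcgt
Cdk2, chr10:128705174-128705201, minus strand: accaggaactGCGGGAAAgttgtgcagc

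Bmal1 binds the E-box CACGTG together with Clock or Npas2. An E-box was present in the windows of 7 of 44 replication genes (15.9%), against 12.1% of tested genes and 8.09% of all genes with a window. The 7 were Chaf1a, Fen1, Lig1, Pola2, Rfc1, Rpa1 and Tyms, and 6 of them are shown with the E-box in capitals. The Fen1 stretch lies within the gene as annotated in GENCODE M21.
Chaf1a, chr17:56040307-56040332, plus strand: gctgaggtgtCACGTGacgcaagctc
Fen1, chr19:10203924-10203949, minus strand: cctggcagatCACGTGacgagagcgc
Pola2, chr19:5964412-5964437, minus strand: gtgctggacaCACGTGtcagtcactg
Rfc1, chr5:65335860-65335885, minus strand: gcccttgcagCACGTGcgtgtactgc
Rpa1, chr11:75348436-75348461, minus strand: tcggaagagtCACGTGctctgcctgc
Tyms, chr5:30073671-30073696, minus strand: ccacttctgtCACGTGggggcggggt

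The CCAAT box (CCAAT, both strands) was in 59.1% of the replication windows, against 43.7% of tested genes and 41.1% of all genes with a window. The CHR element (TTTGAA, both strands), known from late cell cycle promoters, was in 11.4% of them, against 13.8% of tested genes and 20.2% of all genes. Each motif was counted by itself, also where it overlapped another. A match describes letters in a window and was not tested as a binding site.

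**Figure D1:**
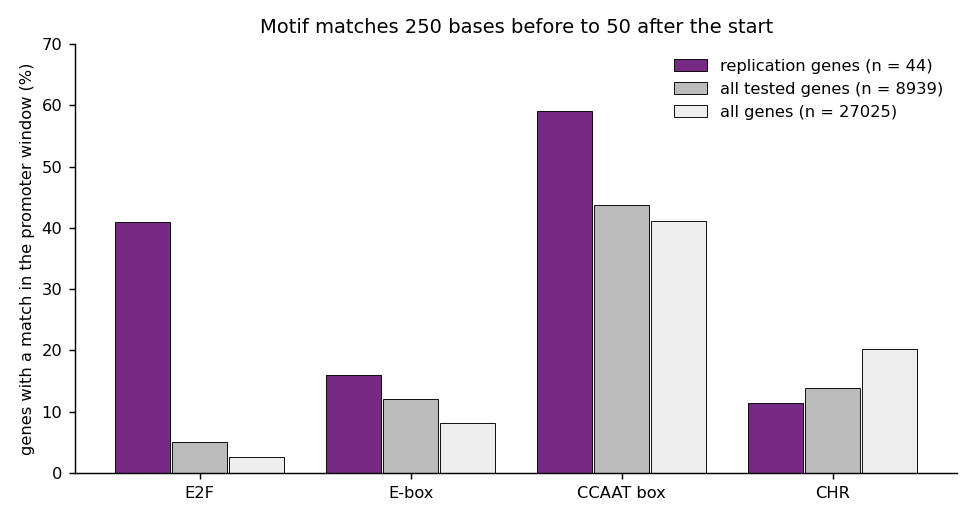
Percent of genes with at least 1 match of each motif in the promoter window, for the 44 replication genes with a window, 8939 tested genes and 27025 genes in all. The E2F bars differ most, at 40.9%, 5.06% and 2.6%.

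FPKM totals ran from 445472 to 483957 per library, read depth is unknown, and within-group correlations across genes were 0.9912 to 0.9983. Among 14 stellate cell markers 12 were in the table. Col1a1 had 2716 to 4222 FPKM and Acta2 51.5 to 241 FPKM, while Des did not pass 1.23 FPKM. Summed markers of hepatocytes stayed at or below 0.49 FPKM, of leukocytes at or below 0.17 FPKM and of endothelial cells at or below 3.36 FPKM, and those of cholangiocytes lay between 5.04 and 9.65 FPKM. Arntl, the siRNA target, had 5.05, 4.01 and 4.0 FPKM in Bmal1 siRNA cells with TGFb and 10.5, 10.8 and 10.9 FPKM in scrambled siRNA cells with TGFb. Under vehicle it had 3.90, 3.87 and 3.59 FPKM in Bmal1 siRNA cells and 5.43, 5.19 and 4.91 FPKM in scrambled siRNA cells. The groups did not overlap in either case, and the differences were -1.13 under TGFb (limma adjusted p = 1.38e-06) and -0.37 under vehicle (adjusted p = 0.049, lost in 13 of 24 alternatives). The second Bmal1 siRNA library with TGFb stood apart from its group: its Acta2 was 114 FPKM, against 185 and 188 FPKM in the other libraries, and its Cdkn1a was 17.1 FPKM, against 29.9 and 29.8 FPKM. Calls of replication genes that depend on this library are named with the counts of each comparison.

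The replication genes were abundant in every group. The median of their mean levels was 41.9 FPKM, at the 81.3rd percentile of tested genes, and 50 of 53 had a mean of at least 10 FPKM. Pcna was the highest at 242 to 277 FPKM by group mean, followed by Mcm7, Mcm2, Tk1 and Mcm5, and the lowest were Gins3, Orc1 and Dscc1. Levels moved little: in 50 of 53 genes the highest group mean was under 1.3 times the lowest, and the largest ratio was 1.78, for Tk1. The median within-group coefficient of variation was 3.63%. In bulk RNA, fewer cells in S phase and less of each transcript per cell cannot be told apart.

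TGFb lowered the set in cells with the scrambled siRNA. Of 53 replication genes, 29 fell and none rose at an adjusted p under 0.05 in limma on log2(FPKM + 1), where 29.1% of all 11208 tested genes were called lower and 16.4% higher. The median change was -0.16 on the log2 scale, against -0.05 over all tested genes, and 47 of 53 changes lay below 0. Scaled by median-of-ratios, 20 of the 29 kept the call, Rrm1 was called higher, and the medians were -0.10 for the replication genes and 0.00 for all tested genes. Of all tested genes 22.8% were then called lower and 22.0% higher. Of all calls in this comparison 36.1% were higher, and 49.1% by that scaling. Over all 24 alternatives 19 of the 29 never lost the call, and the 10 that did at least once were Gins1, Gins3, Mcm3, Mcm5, Mcm7, Pold1, Pold2, Prim2, Rfc4 and Slbp.
With the Bmal1 siRNA, limma called only Rpa1 and Tyms for TGFb, both lower, where 10.1% of all tested genes were called lower and 8.90% higher. The median change there was -0.05, against 0.00 over all tested genes, and 10 of 53 had an unadjusted p under 0.05. Without the second library of that group 12 replication genes were called lower, against 15.4% of all tested genes, and the 10 added were Chaf1a, Dut, E2f1, Gins2, Lig1, Rfc2, Rfc4, Rpa2, Tk1 and Uhrf1. Without the first or last library of that group, or any 1 of the 3 vehicle libraries, Rpa1 alone was called.

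Set against each other under TGFb, Bmal1 siRNA cells had higher levels than scrambled siRNA cells for 17 replication genes and lower levels for none, where 16.0% of all tested genes were called higher and 7.16% lower. The median difference was 0.12, against 0.06 over all tested genes, and 52 of 53 differences lay above 0. Without the second Bmal1 siRNA library with TGFb 6 of the 17 kept the call, and 6 kept it without the first scrambled siRNA library with TGFb. Of all tested genes 10.7% were called higher in each of these fits. The 11 that lost the call without the second Bmal1 siRNA library with TGFb were Chaf1a, Gins4, Lig1, Pold3, Prim1, Rfc2, Rfc4, Rpa1, Rpa2, Slbp and Wdhd1. The count was 9 without the last Bmal1 siRNA library with TGFb, and 10 and 8 without the second and the last scrambled siRNA library with TGFb. In those fits 11.1% to 12.5% of all tested genes were called higher. By median-of-ratios scaling 3 genes were called higher, Pola2, Rfc5 and Tk1, and Rrm2 was called lower. Of all tested genes 8.90% were called higher and 10.3% lower by that scaling. Of all calls 69.1% were higher, and 46.4% by that scaling, where 46 of the 53 differences lay above 0. Only Pola2 and Tk1 kept this call in all 24 alternatives.
Under vehicle, limma called none of the 53 between Bmal1 and scrambled siRNA cells, where 0.294% of all tested genes were called higher and 0.366% lower, and 9 replication genes had an unadjusted p under 0.05. The interaction, which tests whether the TGFb response differed between the siRNAs, was called for 7 genes, all with a positive value, where 8.86% of all tested genes were called with a positive and 5.52% with a negative value. These 7 were Tk1, Gins4, Gins1, Pola2, Chaf1b, E2f1 and Cdt1. By median-of-ratios scaling Tk1 and Pola2 kept the call, where 5.15% of all tested genes were called with a positive and 7.03% with a negative value. The share of all calls with a positive value was 61.6%, and 42.3% by that scaling. Without the second Bmal1 siRNA library with TGFb 6 genes were called: E2f1 and Cdt1 lost the call, and Ccne1 gained it. The count was 14 without the first Bmal1 siRNA library with TGFb and 3 or 4 without any 1 of 8 others: the last Bmal1 siRNA and the first and last scrambled siRNA libraries with TGFb, each Bmal1 siRNA library with vehicle, and the first and last scrambled siRNA libraries with vehicle. The comparisons share groups: both siRNA arms enter the interaction, and the scrambled siRNA libraries with TGFb enter both the TGFb and the siRNA comparison.

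**Figure D2:**
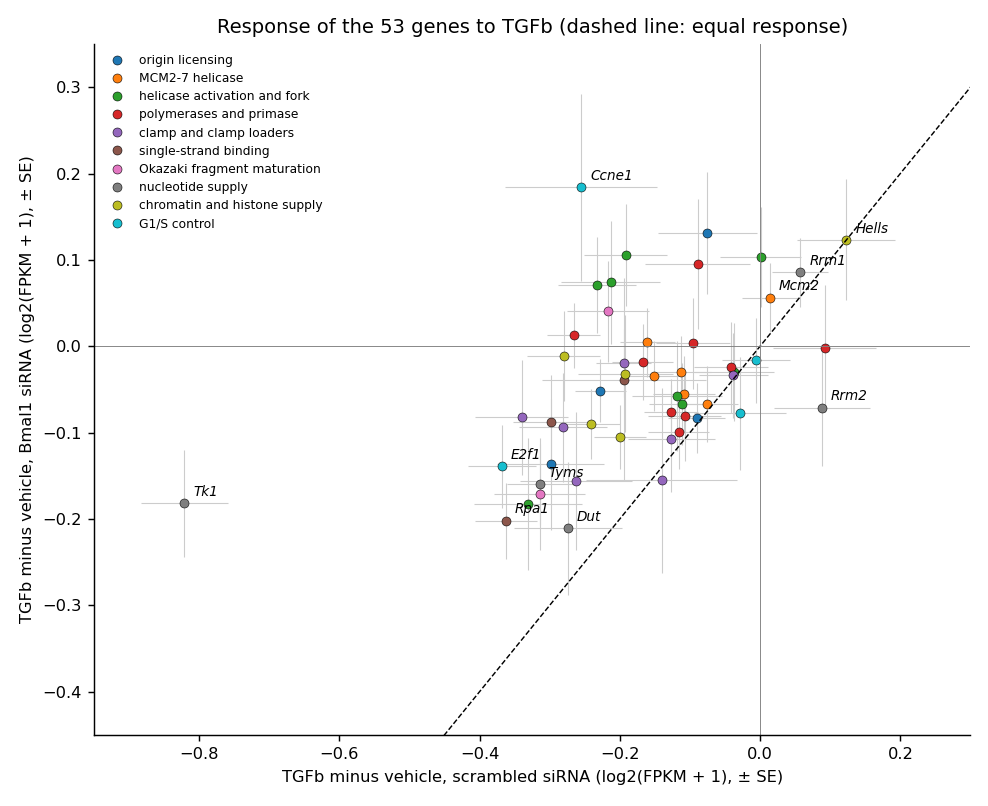
Change with TGFb (log2(FPKM + 1), TGFb minus vehicle, bars are SE) in Bmal1 siRNA cells on the vertical axis and scrambled siRNA cells on the horizontal axis, for the 53 genes coloured by role, with the dashed line at equal change. Most points lie left of 0 and above the dashed line, and Tk1 stands apart at -0.18 with the Bmal1 siRNA and -0.82 with the scrambled siRNA.

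Per library, the median deviation of the 53 genes from the scrambled vehicle mean was -0.09, -0.01 and -0.04 on the log2 scale in Bmal1 siRNA cells with TGFb and -0.17, -0.15 and -0.15 in scrambled siRNA cells with TGFb. It lay between -0.01 and 0.01 in Bmal1 siRNA cells with vehicle and between -0.01 and 0.02 in scrambled siRNA cells with vehicle. The TGFb libraries of the 2 siRNAs did not overlap, and the scrambled ones were the lowest. Over all tested genes the scrambled siRNA libraries with TGFb lay at -0.05 each, and the other 9 libraries lay within 0.02 of 0. With the median over all tested genes subtracted, the replication genes lay at -0.0957, -0.0236 and -0.0401 in Bmal1 siRNA cells with TGFb. In scrambled siRNA cells with TGFb they lay at -0.1241, -0.1003 and -0.0965, so the 2 groups nearly met. FPKM are shares of a library, so each difference is relative to the other genes.

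**Figure D3:**
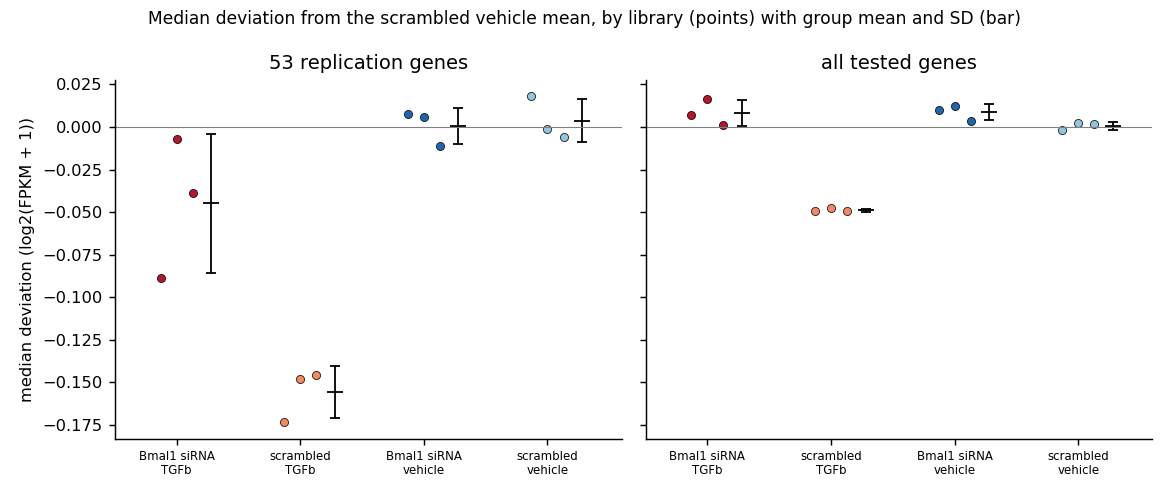
Median deviation from the scrambled vehicle mean (log2(FPKM + 1)) per library, over the 53 replication genes (left) and all tested genes (right); points are libraries, and bars are the group mean and SD. Scrambled siRNA cells with TGFb are the lowest group in both panels, at -0.17 to -0.15 for the replication genes and -0.05 for all genes.

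Nucleotide supply held the gene with the largest change. Tk1 (thymidine kinase 1, which salvages thymidine for DNA synthesis; chromosome 11, 117815526 to 117826092, minus strand) had 118, 137 and 127 FPKM in Bmal1 siRNA cells with TGFb, 91.5, 95.1 and 97.1 FPKM in scrambled siRNA cells with TGFb, 141, 144 and 149 FPKM in Bmal1 siRNA cells with vehicle, and 182, 158 and 164 FPKM in scrambled siRNA cells with vehicle. The groups overlapped in none of the 4 comparisons of pairs, and scrambled siRNA cells with TGFb were the lowest. Tk1 shares 83 exon bases with Afmid. In Bmal1 siRNA cells the TGFb change was -0.18 ± 0.06 (SE) on the log2 scale, which missed the threshold (limma adjusted p = 0.058) but was called lower in 5 of 24 alternatives, among them equal totals, quantile normalization and the fit without the second Bmal1 siRNA library with TGFb. In scrambled siRNA cells Tk1 fell by 0.82 ± 0.06 with TGFb, to 56.2% of the vehicle mean (adjusted p = 3.6e-07). The difference between these responses was 0.64 ± 0.09 (interaction, adjusted p = 0.0005). Under TGFb, Tk1 was higher with the Bmal1 siRNA by 0.43 (adjusted p = 0.000433), whereas under vehicle its difference was -0.21 (adjusted p = 0.0979). The 3 calls of Tk1 held in every alternative tried.

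Tyms, the thymidylate synthase that makes dTMP anew, had 27.5, 30.2 and 28.8 FPKM in Bmal1 siRNA cells with TGFb, 26.4, 26.4 and 28.1 FPKM in scrambled siRNA cells with TGFb, 32.1, 32.9 and 31.9 FPKM in Bmal1 siRNA cells with vehicle, and 34.8, 32.9 and 33.7 FPKM in scrambled siRNA cells with vehicle. The TGFb libraries lay below the vehicle libraries with both siRNAs. Tyms fell with TGFb by 0.16 with the Bmal1 siRNA (adjusted p = 0.0306, lost without any 1 of 5 libraries) and by 0.31 with the scrambled siRNA (adjusted p = 0.000122). The TGFb change of Dut, the dUTPase that keeps uracil out of DNA, was -0.21 with the Bmal1 siRNA (adjusted p = 0.0731), and with the scrambled siRNA Dut fell by 0.27 (adjusted p = 0.0104). The ribonucleotide reductase subunits were not called for TGFb, although Rrm1 was called higher with the scrambled siRNA by median-of-ratios scaling and quantile normalization. Rrm1 (large subunit) was not called in any comparison, at 80.6 ± 2.59, 76.9 ± 1.32, 75.9 ± 1.91 and 73.9 ± 0.956 FPKM in the Bmal1 siRNA with TGFb, scrambled with TGFb, Bmal1 siRNA with vehicle and scrambled with vehicle groups (SD, n = 3 each). Rrm2 (small subunit) had 52.6, 43.4 and 51.9 FPKM in Bmal1 siRNA cells with TGFb and 58.6, 53.2 and 54.6 FPKM in scrambled siRNA cells with TGFb. It was the 1 replication gene with a value below 0 for the siRNA under TGFb (-0.17, adjusted p = 0.0847). Of 13 further nucleotide supply genes, TGFb with the scrambled siRNA lowered 3 (23.1%, against 29.1% of all tested genes) and raised 1 (7.69%, against 16.4%). Among them Dtymk, the kinase that acts after Tk1 and Tyms, changed by -0.43, and Dctd, a dCMP deaminase, by 0.32.

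Of 4 G1/S control genes, E2f1 alone was called lower with TGFb in scrambled siRNA cells, a share of 25% against 29.1% of all tested genes. E2f1, the activating E2F factor (chromosome 2, 154559407 to 154569892, minus strand), had 40.1, 45.1 and 42.6 FPKM in Bmal1 siRNA cells with TGFb, 36.0, 36.2 and 38.7 FPKM in scrambled siRNA cells with TGFb, 46.8, 47.4 and 46.8 FPKM in Bmal1 siRNA cells with vehicle, and 47.0, 48.8 and 48.2 FPKM in scrambled siRNA cells with vehicle. Libraries with TGFb lay below those with vehicle in both arms, and the scrambled siRNA libraries with TGFb were the lowest. The TGFb change of E2f1 was -0.14 ± 0.05 in Bmal1 siRNA cells (adjusted p = 0.0611, called lower with equal totals and without the second library of that group), and in scrambled siRNA cells it fell by 0.37 ± 0.05 (adjusted p = 3.86e-05). Under TGFb it was higher by 0.20 with the Bmal1 siRNA (adjusted p = 0.0106). The interaction was 0.23 (adjusted p = 0.0395) and was lost in 14 of 23 alternatives. Cdk2 changed by -0.01 with TGFb in scrambled siRNA cells and stayed between 41.0 and 42.9 FPKM by group mean. Ccne2 (cyclin E2), which shares 609 exon bases with Ints8, had 17.8, 19.6 and 20.98 FPKM in Bmal1 siRNA cells with vehicle and 15.4, 17.7 and 16.7 FPKM in scrambled siRNA cells with vehicle. These groups did not overlap, but the difference of 0.22 was not called (adjusted p = 0.103). Ccne1 (cyclin E1) had the second largest interaction value, 0.44 ± 0.15, which missed the threshold (adjusted p = 0.075), and its groups overlapped in all 4 comparisons of pairs.

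Around these genes, 3 G1 regulators changed more with TGFb than any replication gene. Of 14 G1 cyclins, CDKs and inhibitors, 8 fell (57.1%, against 29.1% of all tested genes) and 4 rose (28.6%, against 16.4%) with TGFb in scrambled siRNA cells. Ccnd1 (cyclin D1, which starts RB phosphorylation) had 10.1, 16.5 and 13.1 FPKM in Bmal1 siRNA cells with TGFb, 7.5, 6.8 and 6.03 FPKM in scrambled siRNA cells with TGFb, 31.1, 29.4 and 29.1 FPKM in Bmal1 siRNA cells with vehicle, and 29.1, 30.5 and 29.4 FPKM in scrambled siRNA cells with vehicle. TGFb libraries were the lower ones with both siRNAs, and the scrambled siRNA ones were the lowest. Its TGFb change was -1.14 with the Bmal1 siRNA and -1.99 with the scrambled siRNA, with an interaction of 0.84 (adjusted p = 0.00729). Cdkn2b (p15, an inhibitor of Cdk4 and Cdk6) rose by 0.62 with the Bmal1 siRNA and by 1.49 with the scrambled siRNA, and the interaction was -0.86 (adjusted p = 0.000388). Cdkn1a (p21) rose by 0.94 with the Bmal1 siRNA and by 1.79 with the scrambled siRNA, and its interaction of -0.84 (adjusted p = 0.0377) was lost in 9 of 23 alternatives. Under TGFb 8 of the 14 were higher (57.1%, against 16.0% of all tested genes) and 3 lower (21.4%, against 7.16%) with the Bmal1 siRNA. How these genes relate to the replication genes library by library was not tested, nor was any part they had in the changes of those genes.
Of 14 other E2F, DP and RB family genes, 4 fell (28.6%, against 29.1% of all tested genes) and none rose with TGFb in scrambled siRNA cells. The median change of the 14 was -0.0015, against -0.05 over all tested genes. Those that fell included E2f2 (-0.42), Tfdp2 (-0.32) and E2f8 (-0.28). Under TGFb 3 of the 14 were higher with the Bmal1 siRNA (21.4%, against 16.0% of all tested genes), among them Rbl2 (0.25). Of 7 genes for the turnover of Cdt1 and cyclin E, Fbxw7, the ubiquitin ligase adaptor that recognises cyclin E, had 3.66, 2.76 and 2.71 FPKM in Bmal1 siRNA cells with TGFb, 6.47, 6.19 and 6.33 FPKM in scrambled siRNA cells with TGFb, 2.19, 2.30 and 2.12 FPKM in Bmal1 siRNA cells with vehicle, and 1.65, 2.19 and 2.13 FPKM in scrambled siRNA cells with vehicle. Values in scrambled siRNA cells with TGFb were above all others. Fbxw7 rose with TGFb by 0.33 in Bmal1 siRNA cells (adjusted p = 0.0265, lost in 5 of 24 alternatives) and by 1.3 in scrambled siRNA cells (adjusted p = 2.42e-07), with an interaction of -0.97 (adjusted p = 0.00049). Skp2, which targets p27 and Cdt1 for destruction, fell by 0.26 with TGFb in scrambled siRNA cells and was the 1 gene of this list lower with the Bmal1 siRNA under vehicle (-0.31, adjusted p = 0.0313, lost in 9 of 24 alternatives).

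**Figure D4:**
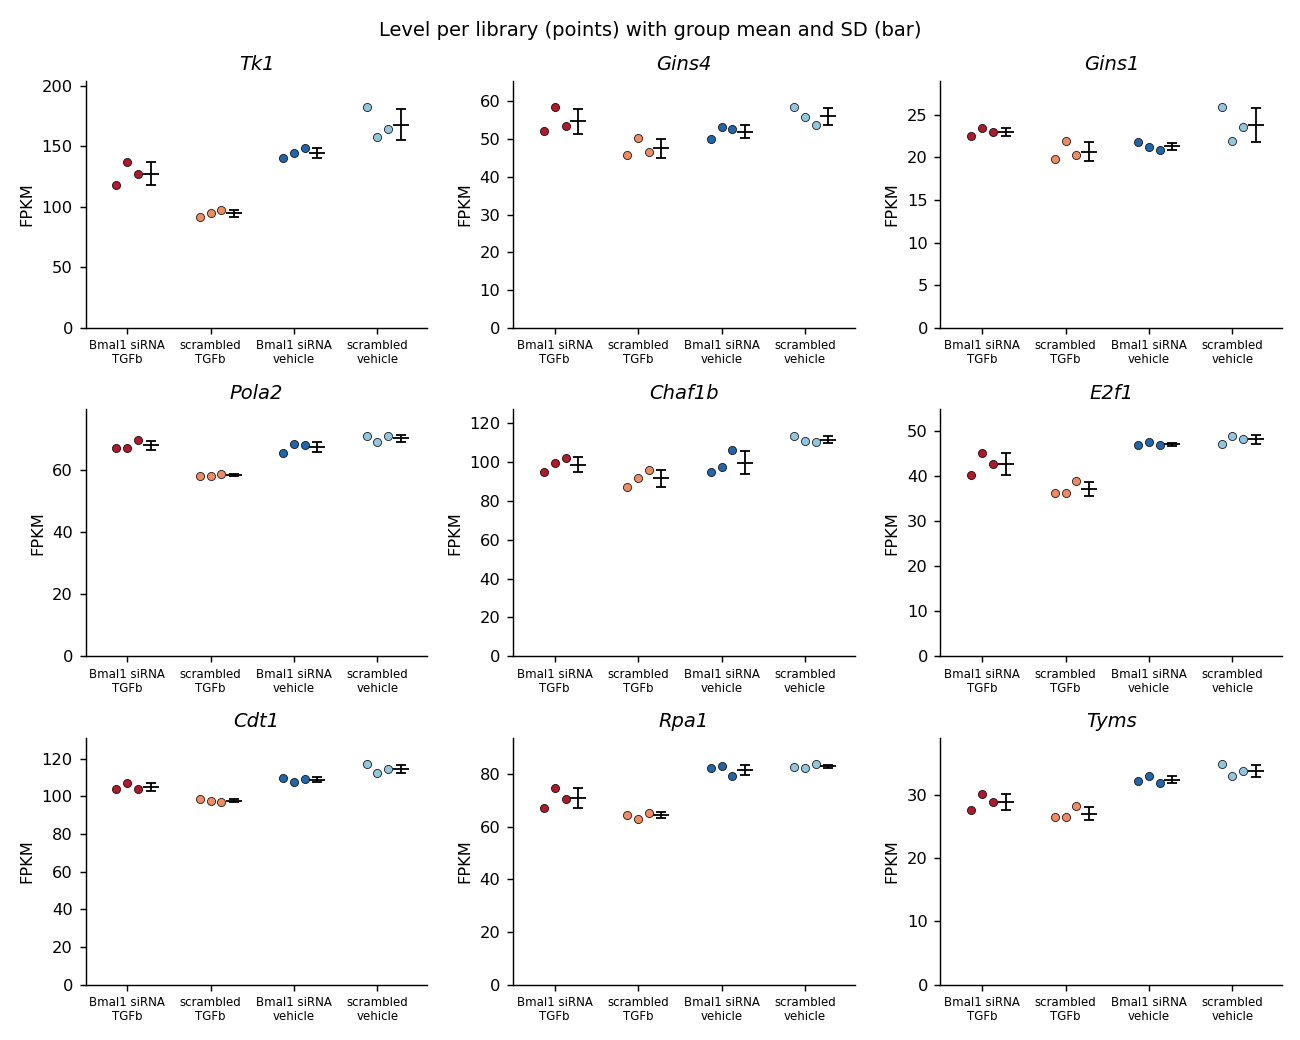
FPKM per library (points) with the group mean and SD (bars, n = 3) for the 7 genes with a called interaction, Rpa1 and Tyms, in 4 groups from left to right: Bmal1 siRNA with TGFb, scrambled with TGFb, Bmal1 siRNA with vehicle, scrambled with vehicle. In each panel the scrambled siRNA libraries with TGFb have the lowest mean, for Tk1 at 94.6 FPKM against 128 FPKM with the Bmal1 siRNA.

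Among 4 origin licensing genes 2 fell with TGFb in scrambled siRNA cells (50%, against 29.1% of all tested genes and 54.7% of the 53). Cdt1, the licensing factor that loads MCM, had 104, 107 and 104 FPKM in Bmal1 siRNA cells with TGFb, 98.3, 97.8 and 96.8 FPKM in scrambled siRNA cells with TGFb, 109.8, 107 and 109 FPKM in Bmal1 siRNA cells with vehicle, and 117, 112 and 114 FPKM in scrambled siRNA cells with vehicle. None of the compared pairs of groups overlapped, with the lowest values in scrambled siRNA cells with TGFb. Cdt1 fell by 0.23 with TGFb in scrambled siRNA cells (adjusted p = 0.000224), and its interaction of 0.18 (adjusted p = 0.0381) was lost in 15 of 23 alternatives. Orc6, the smallest ORC subunit, fell by 0.30 (adjusted p = 0.00614). Orc1 and Cdc6, both with an E2F match upstream of a RefSeq start, changed by -0.08 and -0.09 and were not called. Of 13 other origin and firing factors, 2 fell (15.4%, against 29.1% of all tested genes) and 3 rose (23.1%, against 16.4%) with TGFb in scrambled siRNA cells. Cdc7, the kinase that fires origins, had 13.2, 14.6 and 11.3 FPKM in Bmal1 siRNA cells with TGFb, 9.52, 9.16 and 9.42 FPKM in scrambled siRNA cells with TGFb, 15.8, 16.2 and 15.5 FPKM in Bmal1 siRNA cells with vehicle, and 14.3, 15.5 and 15.0 FPKM in scrambled siRNA cells with vehicle. It fell with TGFb by 0.26 in Bmal1 siRNA cells (adjusted p = 0.0217, lost in 6 of 24 alternatives) and by 0.62 in scrambled siRNA cells (adjusted p = 1.34e-05), and under TGFb it was higher by 0.43 with the Bmal1 siRNA (adjusted p = 0.00109). Orc2 rose by 0.29 with TGFb in scrambled siRNA cells.

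Of the 6 MCM helicase subunits, 3 fell with TGFb in scrambled siRNA cells, each by a small amount. Their share of 50% compares with 54.7% of the 53 replication genes and 29.1% of all tested genes. Mcm7 had 167, 175 and 170.3 FPKM in Bmal1 siRNA cells with TGFb, 158, 158 and 159 FPKM in scrambled siRNA cells with TGFb, 174, 168 and 169.6 FPKM in Bmal1 siRNA cells with vehicle, and 182, 179 and 172 FPKM in scrambled siRNA cells with vehicle. The scrambled siRNA libraries with TGFb lay below all others. Mcm7, which shares 321 exon bases with Ap4m1, fell by 0.16 (adjusted p = 0.00506), a call that median-of-ratios scaling and quantile normalization ended. Mcm5 fell by 0.15 and Mcm3 by 0.11, and Mcm3 lost the call in 14 of 24 alternatives. Mcm2, Mcm4 and Mcm6 were not called, with changes of 0.01, -0.11 and -0.08. None of the 6 was called for either siRNA comparison or for the interaction. Without a filter, however, Mcm7 was called higher with the Bmal1 siRNA under TGFb and called for the interaction. The former call also arose without the first scrambled siRNA library with vehicle.

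The 8 genes that activate the helicase or act at the fork included 2 of the called interactions (25%, against 8.86% of all tested genes). Gins4, a subunit of GINS (chromosome 8, 23226616 to 23237659, minus strand), had 52.1, 58.4 and 53.6 FPKM in Bmal1 siRNA cells with TGFb, 45.7, 50.4 and 46.5 FPKM in scrambled siRNA cells with TGFb, 49.96, 53.3 and 52.7 FPKM in Bmal1 siRNA cells with vehicle, and 58.4, 55.9 and 53.7 FPKM in scrambled siRNA cells with vehicle. TGFb libraries lay below vehicle libraries with the scrambled siRNA and overlapped them with the Bmal1 siRNA. The TGFb change was 0.07 with the Bmal1 siRNA and -0.23 with the scrambled siRNA, and the interaction was 0.30 ± 0.08 (adjusted p = 0.0219, lost in 4 of 23 alternatives). Gins1, another subunit, had 22.6, 23.4 and 23.0 FPKM in Bmal1 siRNA cells with TGFb, 19.9, 21.9 and 20.3 FPKM in scrambled siRNA cells with TGFb, 21.8, 21.2 and 20.9 FPKM in Bmal1 siRNA cells with vehicle, and 25.9, 21.9 and 23.6 FPKM in scrambled siRNA cells with vehicle. Its interaction was 0.30 (adjusted p = 0.0315, lost in 10 of 23 alternatives), and its groups overlapped for TGFb with the scrambled siRNA.
Gins2 had 64.4, 81.3 and 71.6 FPKM in Bmal1 siRNA cells with TGFb, 60.3, 70.6 and 69.8 FPKM in scrambled siRNA cells with TGFb, 81.4, 81.4 and 83.2 FPKM in Bmal1 siRNA cells with vehicle, and 86.8, 85.1 and 80.9 FPKM in scrambled siRNA cells with vehicle. It shares 2758 exon bases with Gse1, and without stated strand use their reads cannot be told apart. Gins2 fell by 0.33 with TGFb in scrambled siRNA cells (adjusted p = 0.00333), and Gins3 by 0.21 (adjusted p = 0.0262, lost in 7 of 24 alternatives). Wdhd1, which links GINS to polymerase alpha, was higher by 0.20 with the Bmal1 siRNA under TGFb (adjusted p = 0.0347, lost in 9 of 24 alternatives). Under vehicle its difference was 0.14 and its interaction was 0.06, and neither was called. Mcm10, Cdc45 and Clspn were not called in any comparison, with changes of -0.11, 0.00 and -0.04 with TGFb in scrambled siRNA cells.

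Among polymerase subunits Pola2 gave the steadiest values. Pola2, the second subunit of the polymerase alpha and primase complex that starts each new strand (chromosome 19, 5940542 to 5964202, minus strand), had 67.2, 67.1 and 69.8 FPKM in Bmal1 siRNA cells with TGFb, 58.1, 58.2 and 58.7 FPKM in scrambled siRNA cells with TGFb, 65.5, 68.6 and 68.2 FPKM in Bmal1 siRNA cells with vehicle, and 71.0, 69.0 and 70.9 FPKM in scrambled siRNA cells with vehicle. The scrambled siRNA libraries with TGFb lay below the 9 others. The TGFb change of Pola2 was 0.01 ± 0.04 in Bmal1 siRNA cells (adjusted p = 0.852), and in scrambled siRNA cells it fell by 0.27 ± 0.04 (adjusted p = 8.19e-05). Under TGFb it was higher with the Bmal1 siRNA by 0.22 (adjusted p = 0.00146), the interaction was 0.28 ± 0.05 (adjusted p = 0.00524), and these 3 calls held in every alternative tried.
Pold2, a subunit of the lagging strand polymerase delta, had 97.0, 97.2 and 99.2 FPKM in Bmal1 siRNA cells with TGFb, 93.0, 94.5 and 94.8 FPKM in scrambled siRNA cells with TGFb, 102, 98.7 and 96.9 FPKM in Bmal1 siRNA cells with vehicle, and 112, 101 and 105 FPKM in scrambled siRNA cells with vehicle. Lowest were the scrambled siRNA libraries with TGFb. Pold2 fell by 0.17 with TGFb in scrambled siRNA cells (adjusted p = 0.0073), a call that median-of-ratios scaling ended. Prim2 fell by 0.12 and Pold1 by 0.13, and Prim2 lost the call in 15 of 24 alternatives. Pole2, a subunit of the leading strand polymerase epsilon, had 14.4, 12.9 and 15.6 FPKM in Bmal1 siRNA cells with TGFb and 11.6, 11.7 and 12.4 FPKM in scrambled siRNA cells with TGFb. These groups did not overlap, and the difference was 0.25 (adjusted p = 0.0323, lost in 10 of 24 alternatives). Prim1 (0.19, lost in 9 of 24 alternatives) and Pold3 (0.16, lost in 17) were the other polymerase genes called higher with the Bmal1 siRNA under TGFb. Under vehicle their differences were 0.09 (Prim1) and 0.13 (Pold3), neither called, and the interaction of Pold3 was 0.03. Pola1, the catalytic subunit next to Pola2, was not called, and its value of 0.09 with TGFb in scrambled siRNA cells lay above 0 while that of Pola2 lay below; under vehicle its difference between Bmal1 and scrambled siRNA cells was 0.23 (adjusted p = 0.116). Pole was not called either.

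**Figure D5:**
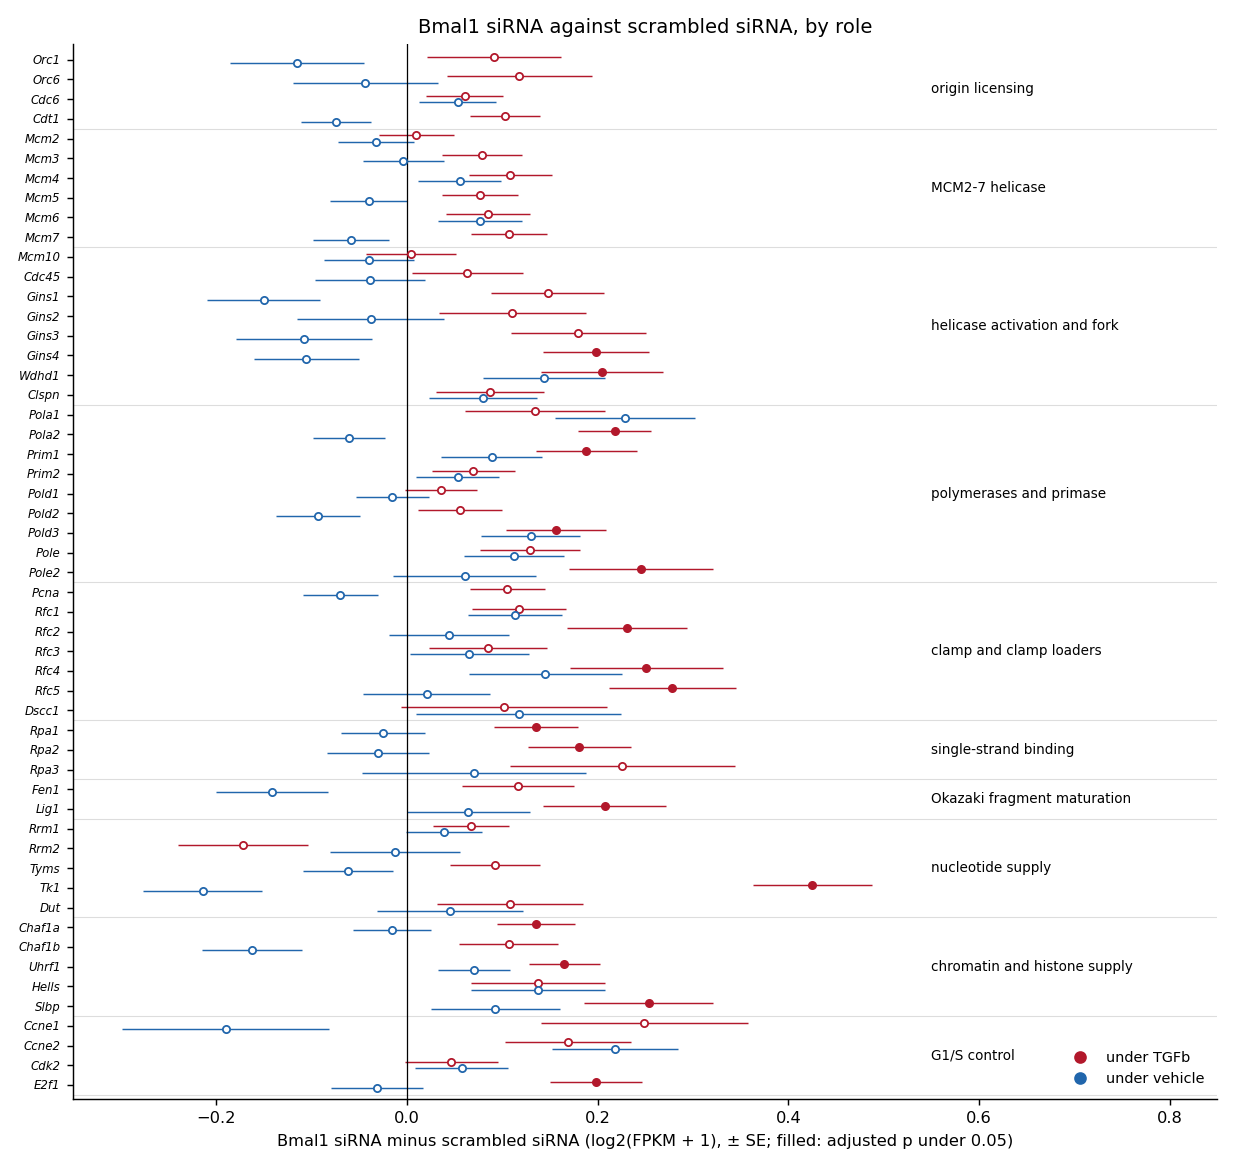
Difference between Bmal1 siRNA and scrambled siRNA cells (log2(FPKM + 1), bars are SE) for each of the 53 genes by role, under TGFb in red and under vehicle in blue, filled where the adjusted p was under 0.05. Under TGFb 52 of 53 points lie right of 0 and 17 are filled, and under vehicle none is filled.

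The clamp and its loaders fell with TGFb in scrambled siRNA cells in 4 of 7 cases. That is 57.1%, near the 54.7% of all 53 replication genes, against 29.1% of all tested genes. Pcna, the sliding clamp, had 252, 267 and 263 FPKM in Bmal1 siRNA cells with TGFb, 239, 246 and 242 FPKM in scrambled siRNA cells with TGFb, 267, 259 and 267 FPKM in Bmal1 siRNA cells with vehicle, and 281, 276 and 275 FPKM in scrambled siRNA cells with vehicle. All scrambled siRNA libraries with TGFb lay below the rest. Pcna fell by 0.19 with TGFb in scrambled siRNA cells (adjusted p = 0.00134). Rfc5, a small subunit of the clamp loader that shares 499 exon bases with Wsb2, had 37.7, 45.3 and 39.2 FPKM in Bmal1 siRNA cells with TGFb, 33.0, 36.0 and 31.2 FPKM in scrambled siRNA cells with TGFb, 43.5, 42.6 and 43.1 FPKM in Bmal1 siRNA cells with vehicle, and 43.98, 41.1 and 42.2 FPKM in scrambled siRNA cells with vehicle. The scrambled siRNA libraries with TGFb were the lowest for Rfc5 and did not overlap with either group they were set against. Rfc5 fell by 0.34 with TGFb in scrambled siRNA cells (adjusted p = 0.00102) and was higher by 0.28 with the Bmal1 siRNA under TGFb (adjusted p = 0.0099).
Rfc2, which shares 952 exon bases with Lat2, had 65.3, 79.0 and 71.4 FPKM in Bmal1 siRNA cells with TGFb and 58.0, 62.1 and 62.8 FPKM in scrambled siRNA cells with TGFb. Rfc4 had 25.0, 31.1 and 26.6 FPKM in Bmal1 siRNA cells with TGFb and 21.03, 24.0 and 23.7 FPKM in scrambled siRNA cells with TGFb. In both genes the second Bmal1 siRNA library was the highest, and the groups did not overlap. Under TGFb they were higher with the Bmal1 siRNA by 0.23 (Rfc2, adjusted p = 0.0186) and 0.25 (Rfc4, adjusted p = 0.0385) and both calls were lost without that library. With TGFb in scrambled siRNA cells they fell by 0.28 and 0.26. Under vehicle the differences with the Bmal1 siRNA were 0.04 (Rfc2) and 0.15 (Rfc4), and neither was called. Rfc1, the large loader subunit, Rfc3 and Dscc1, of the alternative loader for cohesion, were not called in any comparison.

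Of the roles, single-strand binding had the lowest median change with TGFb in scrambled siRNA cells, -0.30 over 3 genes. Rpa1, the large subunit of replication protein A (chromosome 11, 75298166 to 75348324, minus strand), had 67.3, 74.8 and 70.7 FPKM in Bmal1 siRNA cells with TGFb, 64.6, 63.2 and 65.5 FPKM in scrambled siRNA cells with TGFb, 82.5, 83.1 and 79.4 FPKM in Bmal1 siRNA cells with vehicle, and 82.9, 82.6 and 83.8 FPKM in scrambled siRNA cells with vehicle. All 6 TGFb libraries lay below all 6 vehicle libraries. Rpa1 fell with TGFb by 0.20 ± 0.04 with the Bmal1 siRNA (adjusted p = 0.00645) and by 0.36 ± 0.04 with the scrambled siRNA (adjusted p = 2.02e-05), and both calls held in every alternative. The difference between these falls was 0.16 (interaction, adjusted p = 0.104). Rpa2 fell by 0.30 with TGFb in scrambled siRNA cells (adjusted p = 0.000535), and Rpa3 was not called (-0.19). Under TGFb, Rpa1 (0.14) and Rpa2 (0.18) were higher with the Bmal1 siRNA, calls lost in 16 and 10 of 24 alternatives.
Both genes that finish Okazaki fragments fell with TGFb in scrambled siRNA cells, where 29.1% of all tested genes were called lower. Lig1, the ligase that seals them, had 61.2, 72.7 and 67.2 FPKM in Bmal1 siRNA cells with TGFb, 54.6, 58.9 and 60.0 FPKM in scrambled siRNA cells with TGFb, 76.3, 76.6 and 73.4 FPKM in Bmal1 siRNA cells with vehicle, and 67.0, 75.2 and 74.3 FPKM in scrambled siRNA cells with vehicle. TGFb libraries lay below vehicle libraries with both siRNAs. Lig1 fell by 0.31 (adjusted p = 0.00146). Fen1, the flap endonuclease, which shares 1909 exon bases with Gm10143, fell by 0.22 (adjusted p = 0.0084). Lig1 was higher by 0.21 with the Bmal1 siRNA under TGFb (adjusted p = 0.035, lost in 10 of 24 alternatives).
Of 17 other fork, lagging strand and loader genes, 6 fell (35.3%, against 29.1% of all tested genes) and none rose with TGFb in scrambled siRNA cells. Rnaseh2c (-0.60), Pold4 (-0.58) and Rnaseh2b (-0.43) fell most. Under TGFb 6 of the 17 were higher with the Bmal1 siRNA (35.3%, against 16.0% of all tested genes) and none lower. Rnaseh2b, a subunit of the enzyme that removes ribonucleotides from DNA, had an interaction of 0.41 (adjusted p = 0.00478). Of 10 checkpoint genes, 2 fell (20%, against 29.1% of all tested genes) and 1 rose (10%, against 16.4%) with TGFb in scrambled siRNA cells. The 1 that rose was Atr, the kinase that senses stalled forks, with 3.43, 3.40 and 3.68 FPKM in Bmal1 siRNA cells with TGFb, 3.65, 3.59 and 4.05 FPKM in scrambled siRNA cells with TGFb, 3.82, 4.26 and 3.33 FPKM in Bmal1 siRNA cells with vehicle, and 2.76, 2.74 and 2.67 FPKM in scrambled siRNA cells with vehicle. The scrambled siRNA libraries with vehicle were the lowest, and Atr rose by 0.35 with TGFb there (adjusted p = 0.00177), with an interaction of -0.44 (adjusted p = 0.0149). Under vehicle it was higher by 0.36 with the Bmal1 siRNA (adjusted p = 0.0492, lost in 15 of 24 alternatives). Wee1, the kinase that holds back Cdk1 and Cdk2, fell by 0.27 with TGFb in scrambled siRNA cells.

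Chromatin and histone supply genes fell with TGFb in scrambled siRNA cells in 4 of 5 cases. This was 80%, against 29.1% of all tested genes and 54.7% of the 53 replication genes. Chaf1b, a subunit of the CAF-1 histone chaperone that works behind the fork, had 94.7, 99.4 and 102 FPKM in Bmal1 siRNA cells with TGFb, 87.2, 91.8 and 96.0 FPKM in scrambled siRNA cells with TGFb, 95.0, 97.4 and 106 FPKM in Bmal1 siRNA cells with vehicle, and 113, 111 and 110.2 FPKM in scrambled siRNA cells with vehicle. The scrambled siRNA libraries with vehicle lay above the 9 others. Chaf1b fell by 0.28 with TGFb in scrambled siRNA cells (adjusted p = 0.000693). Its interaction of 0.27 (adjusted p = 0.0286) was lost in 10 of 23 alternatives, and under vehicle its difference between the siRNAs was -0.16 (adjusted p = 0.116).
Slbp, which binds the stem-loop of histone mRNA, had 43.8, 53.5 and 49.0 FPKM in Bmal1 siRNA cells with TGFb, 38.1, 41.3 and 42.5 FPKM in scrambled siRNA cells with TGFb, 47.1, 49.5 and 52.6 FPKM in Bmal1 siRNA cells with vehicle, and 46.5, 47.5 and 45.6 FPKM in scrambled siRNA cells with vehicle. Again scrambled siRNA cells with TGFb were the lowest. Slbp was higher by 0.25 with the Bmal1 siRNA under TGFb (adjusted p = 0.0177, lost in 6 of 24 alternatives). It fell by 0.19 with TGFb in scrambled siRNA cells (adjusted p = 0.0342, lost in 9 of 24 alternatives). Chaf1a fell by 0.24 with TGFb in scrambled siRNA cells, and shares 4648 exon bases with Ubxn6. Uhrf1, which keeps DNA methylation through replication, fell by 0.20 there and was higher by 0.17 with the Bmal1 siRNA under TGFb (adjusted p = 0.00719). Hells, a chromatin remodeller, was not called, and its value with TGFb was 0.12 with both siRNAs. Of 10 further chromatin assembly genes, 3 fell (30%, against 29.1% of all tested genes) and 1 rose (10%, against 16.4%) with TGFb in scrambled siRNA cells. Asf1b, the chaperone that feeds CAF-1, was among those that fell, at -0.37 (interaction 0.32, adjusted p = 0.00554). The table listed 63 replication-dependent histone genes and 15 were tested, of which 3 fell and none rose with TGFb in scrambled siRNA cells, a share of 20% against 29.1% of all tested genes. With the Bmal1 siRNA 1 fell and 1 rose (6.67% each, against 10.1% lower and 8.90% higher of all tested genes). Many of these genes are near-identical copies, so their values are uncertain.

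Among 20 genes of G2 and mitosis, 10 fell (50%, against 29.1% of all tested genes) and 1 rose (5%, against 16.4%) with TGFb in scrambled siRNA cells. Their median change was -0.14, against -0.05 over all tested genes. For the 53 replication genes it was -0.16, with 54.7% called lower, so the fall was not particular to them. Ccnb2 (-0.38) and Cdk1 (-0.33) fell, and Mki67, which marks cycling cells, had 64.3 to 78.1 FPKM in Bmal1 siRNA cells with TGFb, 57.8 to 65.7 FPKM in scrambled siRNA cells with TGFb, 77.4 to 84.1 FPKM in Bmal1 siRNA cells with vehicle, and 53.8 to 77.5 FPKM in scrambled siRNA cells with vehicle. With the Bmal1 siRNA none of the 20 was called for TGFb, against 10.1% lower and 8.90% higher of all tested genes. Under TGFb 4 were higher with the Bmal1 siRNA (20%, against 16.0% of all tested genes) and none lower (against 7.16%).

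The promoter motifs shown above were then set beside the TGFb response. An E2F match was present in 8 of 24 genes that fell with TGFb in scrambled siRNA cells (33.3%) and in 10 of 20 that were not called (50%). An E-box was present in 6 of 24 that fell (25%) and in 1 of 20 that were not called (5%). All but Rfc1 of the 7 genes with an E-box fell. Of the 5 genes with a called interaction and a window, Pola2 held an E-box and Cdt1 an E2F match, and Tk1, Chaf1b and E2f1 held neither. The E2f1 window lies wholly within the gene as annotated in GENCODE M21, so the bases upstream of that annotation were not searched. These counts are small and were not tested.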

How the data were processed

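Total RNA of 12 EMS404 samples was sequenced, 3 per group, with groups taken from the titles. Per the labels' protocols, RNA was extracted with 1 of 2 kits depending on abundance and libraries were made at BGI. Which kit served which sample, the annotation, the use of strand and the depth are not given in the sources. Per the file headers, the 1 table deposited by the authors holds FPKM. The genome build mm10 and the programs HISAT2 2.0.4, Bowtie2 2.2.5, RSEM and DESeq2 are listed in the submitters' processing notes with no role. The triplicates are called biological in the series text. Separate cultures are named nowhere, so the p-values cover only how these samples vary, and that spread may be technical.

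The table held 16290 lines. Left out were 555 without an identifier (1.304% to 1.464% of a library's FPKM) and 15 repeated identifiers. Symbols and coordinates came from GENCODE M21 (15717 of 15720 matched). Of the 53 members 20 share exon bases with another gene, 13 of them with a protein-coding one. Besides genes flagged above, the 13 include Orc6 (171 bases, with Vps35), Rfc4 (194, Eif4a2), Cdc45 (209, Ufd1), Pole2 (245, Gm49384) and Lig1 (247, Zswim9). The 11208 genes whose mean reached 0.5 FPKM were tested two-sided with limma 3.58.1 (R 4.3.3). The values were log2(FPKM + 1), and 1 mean per group was fitted to all 12 libraries, with an intensity trend. Calls are at a Benjamini-Hochberg adjusted p under 0.05 over all tested genes. A fold on the log2(FPKM + 1) scale understates the change of low genes. Since depth is unknown, no counting interval is given. With 3 libraries against 3 an exact permutation test cannot go below 0.1 and was not used.

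The members and lists were chosen with earlier results of these data known. Per-library values are given for the 6 called members with the largest rise and fall per comparison (with none called, the 3 with the smallest p), the 5 with the largest called interaction and the highest member of each role; up to 3 called genes are named per pathway list, and 1 such gene is not reported here. Rrm2, Ccne1, Mki67, Acta2 and Col1a1 were named after their values were seen. The alternatives changed the pseudocount (0.1 or 5), the filter (none, or 2 FPKM), the scaling (median-of-ratios, equal totals, quantile normalization) or the fit (replicate block, no trend, robust, compared groups alone). Each library was also left out, and both second TGFb libraries together. The fit was tested on simulated data with independent normal residuals and no shift of whole libraries. That test does not address the scaling. Promoter windows came from RefSeq.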

Additional observations from a re-analysis of the deposited data

Results flagged for a closer look

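For 7 of the 53 genes the TGFb response differed between the siRNAs by the interaction test in limma. The Bmal1 siRNA response minus the scrambled siRNA response was 0.64 for Tk1, 0.30 for Gins4, 0.30 for Gins1, 0.28 for Pola2, 0.27 for Chaf1b, 0.23 for E2f1 and 0.18 for Cdt1 on the log2 scale. All 7 fell with TGFb in scrambled siRNA cells, and none was called for TGFb in Bmal1 siRNA cells, although there Tk1 was called lower in 5 of 24 alternatives and both Tk1 and E2f1 were with equal totals and without the second TGFb library of that group. Only Tk1 and Pola2 kept the call in all 23 alternatives.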

How the results depend on the processing

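No called member changed direction in any alternative. Some members not called in a comparison gained a call in an alternative, among them Ccne1, Cdc6, Hells, Mcm4, Mcm7, Mcm10, Pole and Rfc3. Of the 29 falls with TGFb in scrambled siRNA cells 19 kept the call in all 24 alternatives (23 for the interaction), against 1 of 2 with the Bmal1 siRNA, 2 of 17 for the siRNA under TGFb and 2 of 7 interactions. For TGFb with the Bmal1 siRNA, 2 members were called; the count was 5 with equal totals, 4 with quantile normalization, 3 without a filter, 1 on the compared groups alone, 1 to 12 with 1 library left out and 10 without both second TGFb libraries, a choice made with earlier results known. For the siRNA under TGFb (17 members) it was 4 by median-of-ratios scaling, 9 with equal totals, 10 with quantile normalization, 3 on the compared groups alone, 6 to 21 with 1 library left out and 6 without both second TGFb libraries. For the interaction (7 members) it was 2 by median-of-ratios scaling, 3 with equal totals, 3 with quantile normalization and 3 to 14 with 1 library left out. For the siRNA under vehicle (0 members) it was 0 to 1 with 1 library left out, the 1 being Tk1 without the second Bmal1 siRNA library with TGFb. For TGFb with the scrambled siRNA (29 members) it was 21 by median-of-ratios scaling, 23 with equal totals, 23 with quantile normalization and 25 to 30 with 1 library left out. Shares of all tested genes moved too. For the siRNA under TGFb 11.4% were called higher with equal totals, 10.6% with quantile normalization and 8.93% on the compared groups alone. For the interaction 5.03% had a positive call with equal totals and 6.26% with quantile normalization. For TGFb with the Bmal1 siRNA 10.9% were called lower with equal totals and 10.2% with quantile normalization. Of all calls under vehicle 44.6% were higher, and 61.2% with equal totals. With 1 library left out, 6.07% to 15.4% of all tested genes were called lower for TGFb with the Bmal1 siRNA. With the scrambled siRNA it was 25.1% to 31.0%. For the siRNA under TGFb 10.7% to 18.3% were called higher, and for the interaction 5.05% to 10.7% with a positive value. Without both second TGFb libraries 15.5% were called lower for TGFb with the Bmal1 siRNA, and 8.23% higher for the siRNA under TGFb. The cause of these shifts was not tested.

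The replicate numbers were not taken to pair the libraries: same-numbered deviations correlated at -0.15 to 0.47 over the 4 comparisons of pairs, none with all 3 pairs above 0.1. Between scrambled siRNA cells with TGFb and Bmal1 siRNA cells with vehicle, which are not compared, all 3 were above 0.1 (0.42, 0.22 and 0.20). With a replicate block the counts were 30, 5, 1, 20 and 9 for TGFb with the scrambled siRNA, TGFb with the Bmal1 siRNA, the siRNA under vehicle (Ccne2), the siRNA under TGFb and the interaction, and 2 to 4 of 6 libraries correlated best with their own number. Depth is unknown, which limits what can be said of genes at a few FPKM.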
